A study of Mus musculus with 2 samples.

Results

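The Notch pathway was examined through 10 genes, the receptors Notch1, Notch2 and Notch3, the ligands Dll1, Dll3, Jag1 and Jag2, and the target genes Hes1, Hes5 and Hey1. They were taken by symbol from the 32285 genes of the count tables, and each symbol matched 1 gene. The samples were 2 single-cell RNA-seq libraries of mouse heads, cut below pharyngeal arch 2, at E11.5 of embryonic development, from cells in which the Wnt1:CRE driver had switched the mTmG reporter to GFP and which were then sorted for GFP. The control embryos carried 1 wild-type and 1 floxed copy of Tfap2a and likewise of Tfap2b (wt/flox), and the mutant embryos were flox/flox for both genes. All embryos of both groups also carried Wnt1CRE and were homozygous for the r26 mTmG reporter. Each group was 1 pool of 2 embryos and 1 library, so no replicate error could be estimated and no test was made. Intervals in brackets are at 95% and cover counting error only. Wnt1:CRE marks cranial neural crest cells (CNCCs), the migratory cells that build much of the face, but it is also active in the dorsal brain, and brain cells were therefore part of both libraries.

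Notch signalling works between neighbouring cells. A ligand of the Delta or Jagged family on 1 cell binds a Notch receptor on the next, the receptor is cut by gamma-secretase, and its inner part enters the nucleus, where it joins the DNA-binding protein RBPJ and switches on Hes and Hey genes. These encode repressors that hold back proneural factors such as Neurog1 and so keep a neural progenitor from becoming a neuron. In the neural crest the pathway is known for glial development and for the patterning of the jaw, where Jag1 acts in the dorsal arch, and Notch3 and Heyl are well known from the mural cells around blood vessels.

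The control library held 6148 barcodes and the mutant library 6063, of which 5625 and 5587 passed the filters, with medians of 13478 and 12234 unique molecular identifiers (UMIs) a cell. A UMI marks 1 captured transcript. Of all barcodes, 6 were found in both libraries, and 5 of these were kept in each. Xist was detected in 98.8% of control and 0.107% of mutant cells, and Y-linked transcripts in 0.0356% and 82.0%, so sex and genotype cannot be told apart in any comparison. Tfap2a and Tfap2b, which encode the transcription factors targeted in the mutant, were still detected there. In the mesenchyme Tfap2a had 19.4 counts per 1000000 UMIs (CPM) in the control and 13.7 in the mutant library, and Tfap2b 56.4 and 46.9. A 3′ library counts transcript ends and does not separate intact from recombined floxed alleles.

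Cells were grouped into 5 classes without using the Notch genes. Mesenchyme had 3717 control and 2731 mutant cells, glia 151 and 178, brain progenitors 774 and 1260, neurons 713 and 1153, and sensory neurons 119 and 52. The mesenchyme, glia and sensory neuron marker lists each had their highest sum in the class of that name, in both libraries. The 7 brain progenitor markers, which include Fabp7 and Sox2, did not separate progenitors from glia, with 2068 and 2191 CPM in the progenitors and 2411 and 1903 CPM in the glia, and the neuron markers were high in sensory neurons too. The 7 mesenchyme markers summed to 1894 CPM in control mesenchyme and to at most 76.4 CPM in any other class of either library. The 6 endothelial markers summed to 4.00 and 4.14 CPM in the mesenchyme, and at most 1 cell of either library held 3 or more of them. A further 151 control and 213 mutant cells lay in 3 clusters in which 43.8% or more of the cells were called doublets, and these were kept out of every class.

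The receptors differed in where they were found (see the plot of levels by class). Notch1 (ENSMUSG00000026923, GRCm38 chromosome 2, 26457903 to 26516663, minus strand) was at its highest in the glia, with 171 CPM (156 to 187) in the control and 173 CPM (157 to 189) in the mutant library. Brain progenitors followed with 130 (123 to 138) and 132 (126 to 138) CPM, then neurons with 58.8 and 53.9 CPM, and the mesenchyme was lowest with 12.7 (11.8 to 13.6) and 20.2 (18.9 to 21.6) CPM. The intervals of neighbours in this order of 4 classes did not overlap, in either library. Sensory neurons had 129 CPM (115 to 144) in the control, next to the progenitors, and 52.9 CPM (39.4 to 69.5) in the mutant library, next to the neurons. In cells thinned to 4000 UMIs, a Notch1 UMI was found in 42.7% (34.6 to 51.0) of control glia, 39.9% (36.5 to 43.5) of brain progenitors and 4.83% (4.16 to 5.57) of mesenchyme cells. By share of cells, therefore, glia and progenitors were not separated beyond counting error. Without thinning these shares were 89.4%, 68.3% and 15.1%, with median depths of 17763, 11479 and 14446 UMIs. Notch1 overlaps the opposite-strand genes 0610009E02Rik and Gm13568, and since the sources used here do not give the strand used for counting, reads of these genes cannot be told apart from its own.

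**Figure D1:**
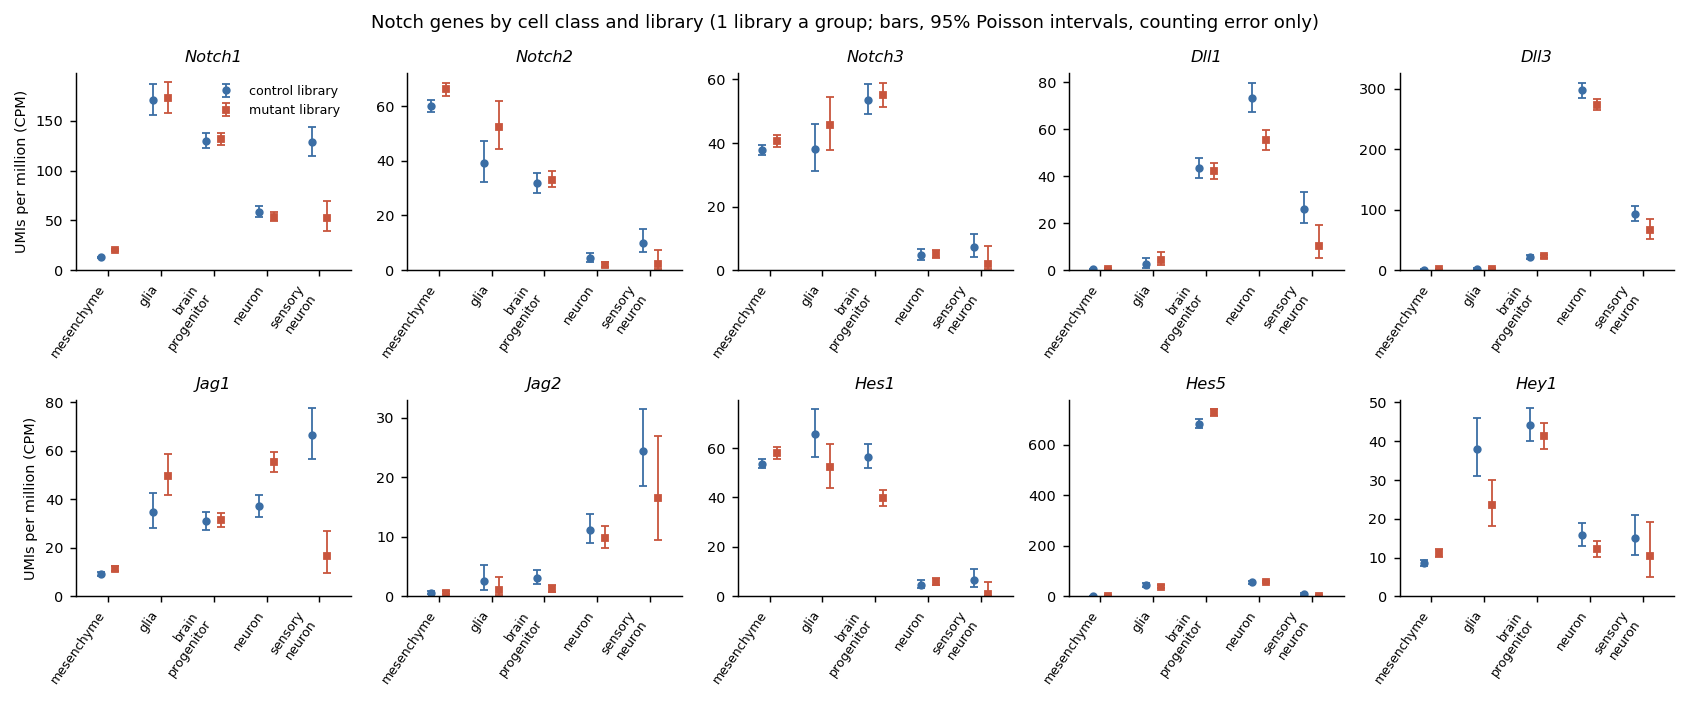
Level of each of the 10 genes in CPM (y axis, starting at 0 and scaled for each gene) in the 5 cell classes, with circles for the control and squares for the mutant library and bars for 95% Poisson intervals. Notch2 and Hes1 lie low in neurons, Dll1 and Dll3 peak there, and Hes5 reaches 684 and 729 CPM in brain progenitors and at most 55.8 CPM in each other class.

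Notch2 (ENSMUSG00000027878, chromosome 3, 98013527 to 98150361, plus strand) was highest in the mesenchyme, where Notch1 was lowest. It had 60.04 CPM (58.1 to 62.1) in control and 66.1 CPM (63.7 to 68.6) in mutant mesenchyme, 39.1 and 52.6 CPM in the glia, 31.8 and 33.1 CPM in brain progenitors and only 4.37 and 2.02 CPM in neurons. In the glia and the progenitors the control intervals, 32.1 to 47.2 and 28.3 to 35.6 CPM, overlapped. Notch3 (ENSMUSG00000038146, chromosome 17, 32120820 to 32166852, minus strand, overlapped by the antisense gene Gm17276) was at 53.7 and 55.2 CPM in brain progenitors, 38.0 and 45.6 CPM in the glia, 37.9 and 40.7 CPM in the mesenchyme and 4.78 and 5.00 CPM in neurons. Glia and mesenchyme did not differ for Notch3 beyond their intervals. All 3 receptors were thus lower in neurons than in brain progenitors, in both libraries.

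Among the ligands, Dll1 and Dll3 were found almost wholly in neural cells. Dll1 (ENSMUSG00000014773, chromosome 17, 15367354 to 15376872, minus strand), the Delta ligand shown by cells that begin to form neurons, had 73.4 CPM (67.3 to 79.9) in control and 55.3 CPM (51.2 to 59.6) in mutant neurons, 43.3 and 42.1 CPM in brain progenitors, and 0.315 and 0.527 CPM in the mesenchyme, the latter from 18 and 22 UMIs. Dll3 (ENSMUSG00000003436, chromosome 7, 28293553 to 28302238, minus strand), a Delta protein that stays inside the cell and dampens Notch there, had 298 CPM (285 to 311) in control and 274 CPM (265 to 283) in mutant neurons, against 21.5 and 22.8 CPM in brain progenitors. In thinned cells a Dll3 UMI was found in 59.6% and 57.6% of neurons and in 0.299% and 0.667% of mesenchyme cells. The source of the last 2 shares was not tested. Median depths were 14446 and 14290 UMIs in the mesenchyme, against 9453 and 9543 UMIs in neurons.

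Jag1 (ENSMUSG00000027276, chromosome 2, 137081456 to 137116644, minus strand) was present in every class. It had 9.18 and 11.4 CPM in the mesenchyme, 31.0 and 31.5 CPM in brain progenitors, 34.8 and 49.6 CPM in the glia, 37.0 and 55.3 CPM in neurons and 66.4 and 16.6 CPM in sensory neurons. In the control library the levels in progenitors, glia and neurons had overlapping intervals, and that in sensory neurons lay above them. Jag2 (ENSMUSG00000002799, chromosome 12, 112907819 to 112929776, minus strand) was a low gene, with 24.4 and 16.6 CPM in sensory neurons, 11.2 and 9.84 CPM in neurons and at most 3.14 CPM elsewhere.

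The target genes were divided between the lineages as well. Hes1 (ENSMUSG00000022528, chromosome 16, 30064384 to 30067796, plus strand) had 53.6 and 58.0 CPM in the mesenchyme, 65.5 and 52.2 CPM in the glia and 56.5 and 39.8 CPM in brain progenitors, but 4.65 and 5.89 CPM in neurons. Hes5 (ENSMUSG00000048001, chromosome 4, 154960923 to 154962371, plus strand) had 684 CPM (668 to 701) in control and 729 CPM (715 to 743) in mutant brain progenitors, 55.8 and 55.6 CPM in neurons, 44.2 and 39.0 CPM in the glia and 2.48 and 3.54 CPM in the mesenchyme. In thinned cells 69.7% of control and 73.2% of mutant progenitors held a Hes5 UMI, against 1.09% and 1.30% of mesenchyme cells. Hes5 overlaps the opposite-strand gene Gm20421 and carries the same doubt as Notch1. Hey1 (ENSMUSG00000040289, chromosome 3, 8663359 to 8667256, minus strand) had 44.2 and 41.3 CPM in brain progenitors, 38.0 and 23.5 CPM in the glia, 15.7 and 12.1 CPM in neurons and 8.55 and 11.2 CPM in the mesenchyme.

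The bases just before the start sites of 3 of these genes are shown, because Hes5 is the textbook target of RBPJ and the Delta genes are textbook targets of proneural factors, and these genes marked progenitors and neurons in the data. The RefSeq promoter table (GRCm38.p6) held 9 start sites of 8 of the 10 genes, with none for Hes1 and Hey1. The 250 bases before each start were searched on both strands for the letters TGGGAA (the core of RBPJ sites), CACNAG (the N-box bound by Hes proteins), CANCTG (the E-box of proneural factors) and GCCNNNGGC (TFAP2). Matches are in capitals, and the sequences run 5′ to 3′ on the strand of the gene. Hes5 is at chr4:154960673-154960922 (plus strand), Dll1 at chr17:15376933-15377182 (minus strand) and Dll3 at chr7:28301786-28302035 (minus strand).
Hes5: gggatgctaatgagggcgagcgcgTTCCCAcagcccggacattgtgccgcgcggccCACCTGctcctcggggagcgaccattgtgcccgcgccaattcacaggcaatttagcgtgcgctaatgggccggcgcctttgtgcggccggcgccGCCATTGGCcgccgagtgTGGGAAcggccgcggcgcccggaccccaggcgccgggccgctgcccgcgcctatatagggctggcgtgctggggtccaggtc
Dll1: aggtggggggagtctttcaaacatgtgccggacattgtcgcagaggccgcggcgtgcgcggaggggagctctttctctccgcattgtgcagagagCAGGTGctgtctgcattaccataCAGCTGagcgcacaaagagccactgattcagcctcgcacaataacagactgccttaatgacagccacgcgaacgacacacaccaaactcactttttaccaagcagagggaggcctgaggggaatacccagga
Dll3: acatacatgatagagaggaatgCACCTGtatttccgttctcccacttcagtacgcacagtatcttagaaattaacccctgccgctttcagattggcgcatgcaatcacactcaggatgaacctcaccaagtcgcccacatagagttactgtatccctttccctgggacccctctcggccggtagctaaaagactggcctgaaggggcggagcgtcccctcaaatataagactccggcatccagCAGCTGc

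In Hes5 the RBPJ letters occurred 2 times, TTCCCA at bases -226 to -221 and TGGGAA at -82 to -77 from the start, the TFAP2 letters once, GCCATTGGC at -100 to -92, and an E-box once. This Dll1 start and the Dll3 start held 2 E-boxes each and no RBPJ letters. The other Dll1 start held none of the motifs. Of the remaining genes, Jag1 held 1 E-box, Jag2 held the TFAP2 letters once, and Notch1, Notch2 and Notch3 held only N-boxes. Of all 32851 windows of this length in the table, 21.6% held the RBPJ letters, 36.7% the N-box, 44.8% the E-box and 13.7% the TFAP2 letters, so a match by itself is common. The matches do not show that a factor was bound.

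The mutant and control libraries were then compared within each class. A gene was called apart when its CPM differed by 1.5-fold or more and it had 100 or more UMIs in 1 or both libraries. In the mesenchyme 7 of the 10 genes had that many UMIs, and 1 of them, Notch1, was called, where 2.93% of all 11593 tested genes were called, 2.03% as higher and 0.906% as lower in the mutant library. In the glia 1 of 7 (Hey1) was called as lower, against a background of 5.51% (3% higher, 2.5% lower). In brain progenitors 0 of 9 were called against 1.38% (0.929% higher, 0.449% lower), in neurons 0 of 7 against 1.65% (1.15% higher, 0.5% lower), and in sensory neurons 2 of 3 (Notch1 and Jag1, both lower) against 24.9% (13.4% lower). The ratios are given with their counting intervals in the plot of ratios by class. The genes under the minimum were Dll1, Dll3 and Jag2 in mesenchyme and glia, Jag2 in brain progenitors, Notch2, Notch3 and Hes1 in neurons, and 7 genes in sensory neurons.

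**Figure D2:**
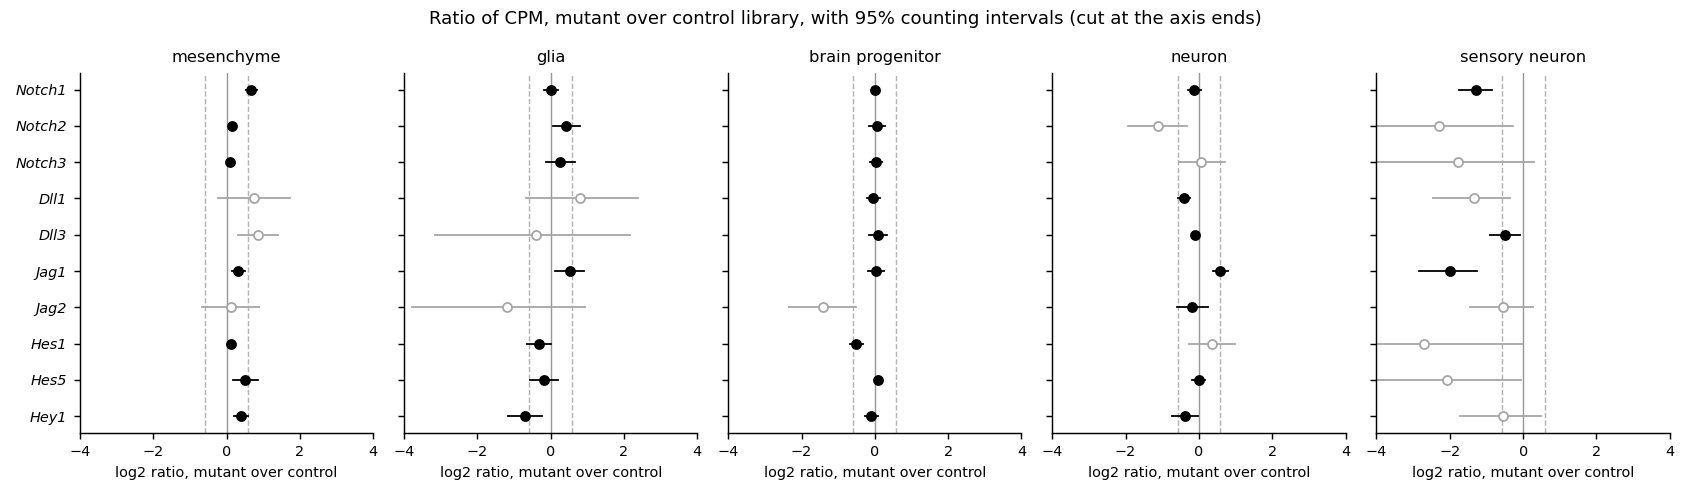
Log2 ratio of mutant over control CPM (x axis) for the 10 genes in each class, with lines for 95% counting intervals, filled circles for genes with 100 or more UMIs in 1 or both libraries, open circles for the others, and dashed lines at 1.5-fold. Brain progenitors lie close to 0 apart from Hes1 at -0.50 and the low gene Jag2, and the sensory neurons lie to the left.

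In the mesenchyme Notch1 had 726 UMIs in the control and 845 in the mutant library, although the mutant library held fewer mesenchyme cells. This is 12.7 against 20.2 CPM, a log2 ratio of 0.67 (0.53 to 0.82). The share of thinned cells with a Notch1 UMI was 4.83% (4.16 to 5.57) and 7.75% (6.77 to 8.82), and these intervals did not overlap. The other genes that passed the minimum were all higher in the mutant library by less. Jag1 had a ratio of 0.32 (0.14 to 0.50), Hey1 of 0.39 (0.20 to 0.57), Hes5 of 0.51 (0.17 to 0.86), Notch2 of 0.14 (0.07 to 0.21), Hes1 of 0.11 (0.04 to 0.19) and Notch3 of 0.10 (0.01 to 0.19). Over the alternative settings described below, the ratio of Hes5 ran from 0.03 to 1.31, beyond its counting interval. The median over the 7 genes was 0.32 on the log2 scale, beside 0.01 over all tested genes.

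Other markers moved in the mesenchyme too. The 7 neuron markers were all higher in the mutant library and summed to 147 and 194 CPM, the 7 brain progenitor markers summed to 51.4 and 54.1 CPM with 6 higher, and 6 of 7 mural markers were higher, with sums of 86.6 and 131 CPM. The part of these in the ratios was not tested. Dll3, which marks neurons, had 0.926 and 1.68 CPM in the mesenchyme, and Hes5, at 684 and 729 CPM in progenitors, had 2.48 and 3.54 CPM. Removing called doublets left Notch1 at 0.69. When the shares of the mesenchyme clusters were held equal in both libraries the ratio was 0.50, which is below 1.5-fold.

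Regions of the mesenchyme were told apart by 7 clusters. M0 was mandibular-like, M1 maxillary-like and M2 frontonasal-like, while M3 was led by Dlx3, Hoxa2 and Emx2, M4 by Vtn, Zic1 and Tagln, M5 by Foxl2 and Gata3, and M6 by Cyp26a1, Shisa3 and Hmx1. M0 carried 3 of the 5 mandibular markers, while Dlx3 and Dlx4 of the same list were among the leading genes of M3. M0 was the largest cluster in the control and M1 in the mutant library. The level of Notch1 differed between regions. In the control library it ran from 5.42 CPM in M2 and 5.72 in M5 through 11.1 in M0 and 11.3 in M1 to 22.4 in M3, 26.1 in M4 and 28.8 in M6. In the mutant library it was 13.3 CPM in M2, 8.34 in M5, 19.3 in M0, 9.79 in M1, 30.3 in M3, 39.9 in M4 and 33.7 in M6.

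Notch1 was thus higher in the mutant library in 6 of the 7 clusters, with the maxillary-like cluster as the exception. The log2 ratio was 1.29 (0.81 to 1.78) in frontonasal-like cells, from 68 and 79 UMIs and hence under the minimum, 0.80 (0.43 to 1.17) in mandibular-like cells, 0.61 (0.28 to 0.95) in M4 and 0.44 (0.14 to 0.73) in M3. In maxillary-like cells it was -0.20 (-0.60 to 0.19). M0 and M4 passed the minimum and 1.5-fold, where 1.68% and 3.28% of all tested genes were called. In M0 the mural markers summed to 79.5 and 145 CPM, with 4 of 7 higher, and in M4 to 293 and 500 CPM, with 7 of 7 higher. In M2 these sums were 68.6 and 72.1 CPM, and the neuron markers there summed to 125 and 169 CPM.

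**Figure D3:**
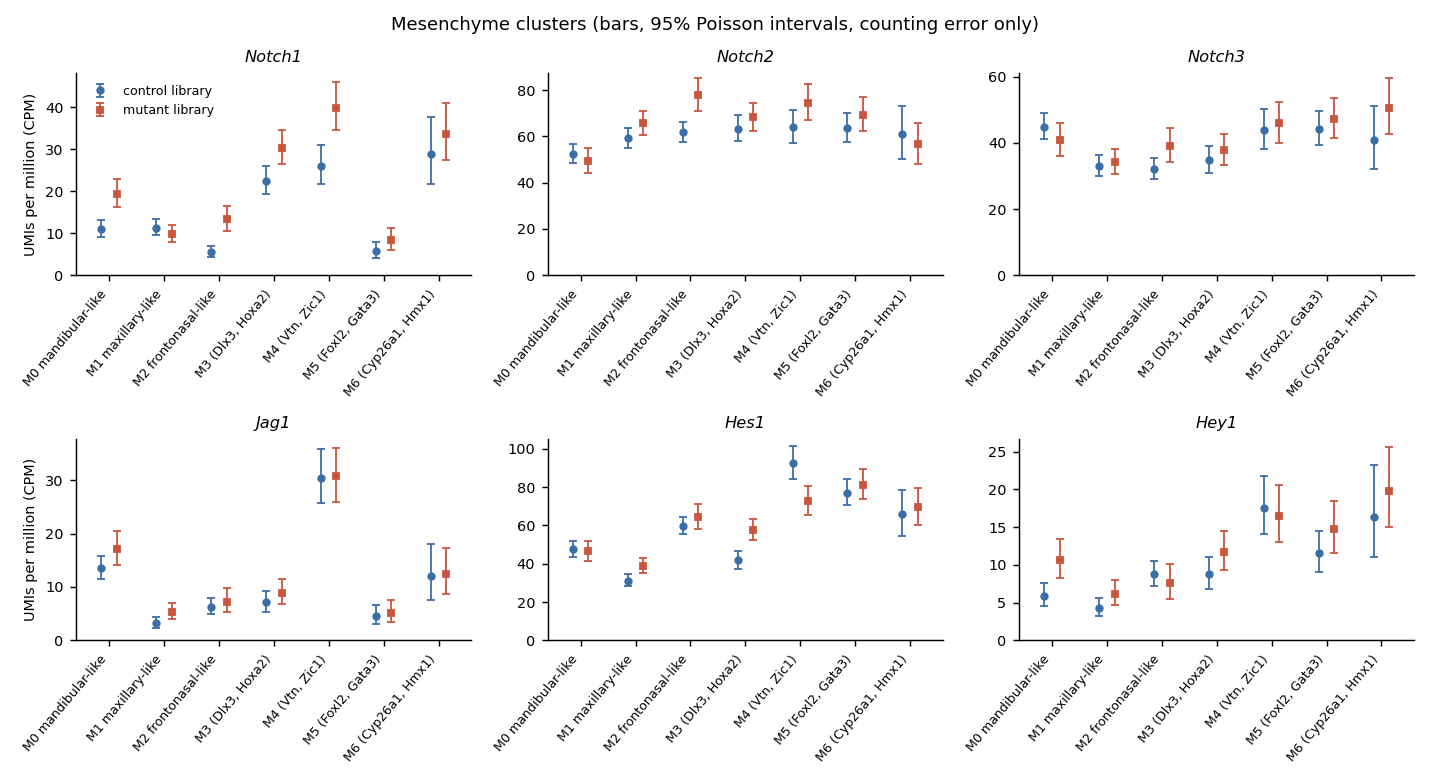
Level of 6 Notch genes in CPM (y axis from 0) in the 7 mesenchyme clusters, with circles for the control and squares for the mutant library and bars for 95% Poisson intervals. Notch1 is higher in the mutant library in all clusters but M1, Jag1 stands highest in M4, and Hes1 is lowest in M1.

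Notch2 and Notch3 were nearly even across the regions. Notch2 lay between 52.4 CPM in M0 and 63.9 CPM in M4 in the control library, and Notch3 between 32.2 CPM in M2 and 44.97 CPM in M0. The only cluster in which the interval of Notch2 left out 0 was the frontonasal-like M2, with 61.9 and 77.8 CPM and a ratio of 0.33 (0.16 to 0.50), and M2 was also the only such cluster for Notch3, with 0.28 (0.05 to 0.52). Jag1 was highest in M4, with 30.4 and 30.7 CPM, followed by 13.5 and 17.03 CPM in mandibular-like cells, and low in maxillary-like cells, with 3.22 and 5.32 CPM, and in M5, with 4.64 and 5.17 CPM.

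Hes1 ranged from 31.2 CPM in M1 to 92.6 CPM in M4 in the control library. It differed between the libraries in opposite directions. In M3 it had 41.8 and 57.7 CPM, a ratio of 0.46 (0.25 to 0.68), in M1 0.31 (0.10 to 0.52), and in M4 92.6 and 72.7 CPM, a ratio of -0.35 (-0.56 to -0.15). None of these reached 1.5-fold. Hey1 was higher in the mutant library in mandibular-like cells, with 5.94 and 10.6 CPM and a ratio of 0.84 (0.34 to 1.35) from 66 and 70 UMIs, and had -0.09 (-0.55 to 0.37) in M4. Hes5 had at most 35 UMIs in any mesenchyme cluster of either library.

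Heyl, a further Hey-family target that was not among the 10 genes, was the 1 gene of 45 other pathway genes that was called in the mesenchyme, out of 33 that passed the minimum, against 2.93% of all tested genes. It had 128 UMIs or 2.24 CPM in the control against 246 UMIs or 5.89 CPM in the mutant, and its log2 ratio was 1.40 (1.08 to 1.72). Of these UMIs 78 and 150 came from M4, where it had 16.1 and 31.3 CPM, a ratio of 0.96 (0.55 to 1.37). M6 had 3.81 and 13.2 CPM, from 7 and 38 UMIs, and M0 0.630 and 3.35 CPM, from 7 and 22 UMIs. The median ratio over the 33 genes was 0.05, beside 0.01 over all tested genes.

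In the glia the genes called were targets of the pathway. The UMIs of Hey1 numbered 105 in the control and 64 in the mutant, or 38.0 CPM (31.1 to 46.0) and 23.5 CPM (18.1 to 30.0), and the log2 ratio was -0.69 (-1.16 to -0.23), which stayed below 1.5-fold under 6 alternatives, among them -0.42 in thinned cells and -0.56 with equal weight per cell. Among the other pathway genes 3 of 17 that passed the minimum were called, against 5.51% of all genes tested in the glia. Heyl was lower with 93.8 and 44.8 CPM, a ratio of -1.06 (-1.39 to -0.75), as was Nrarp, a feedback inhibitor and target of Notch, with 78.9 and 44.1 CPM and -0.84 (-1.17 to -0.51). Hey2 was higher, with 103 and 165 CPM and 0.68 (0.46 to 0.90). Hes1 went from 65.5 (56.3 to 75.8) to 52.2 (44.0 to 61.5) CPM and Hes5 from 44.2 to 39.0 CPM, -0.18 (-0.57 to 0.21). Notch1 had 472 and 470 UMIs and a ratio of 0.02 (-0.17 to 0.20), Notch2 0.43 (0.06 to 0.80), Notch3 0.26 (-0.13 to 0.65) and Jag1 0.51 (0.13 to 0.91).

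The 3 glial clusters differed in these ratios. G0 was led by Rgcc, Scrg1 and Sox10 and held 69 control and 84 mutant cells. Hey1 there had 61 and 26 UMIs and a ratio of -1.25 (-1.97 to -0.56), Heyl -1.57 (-2.06 to -1.11), Nrarp -1.15 (-1.57 to -0.74), Hes5 -0.50 (-0.99 to -0.02) and Notch1 -0.30 (-0.55 to -0.05). In G1, led by the pigment cell genes Pmel and Dct with 59 and 55 cells, Hey1 had 0.02 (-0.70 to 0.74), Heyl -0.51 (-1.15 to 0.12) and Nrarp -0.30 with an interval that held 0, while Jag1 had 49.5 and 93.1 CPM, a ratio of 0.91 (0.39 to 1.44), and Hey2 19.99 and 79.3 CPM. In G3, led by Prss56 and Egr2 with 23 and 39 cells, Notch1 had 0.61 (0.09 to 1.14), Hes5 1.18 (0.20 to 2.25) and Heyl -0.85 (-1.52 to -0.20). Differences between these clusters were not tested.

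The make-up of G0 differed as well. The 7 brain progenitor markers, of which Fabp7 and Sox2 are also glial, summed to 3742 and 2464 CPM in G0, and the 7 neuron markers to 323 and 176 CPM. Their part in the lower targets was not tested. The glia are given without a neighbouring cluster of 94 control and 11 mutant cells led by Isl1 and Neurod1, which carried 6 of 7 sensory neuron markers and is described below. With it left in, Hey1 had -0.46 and was no longer called, Jag1 changed from 0.51 to -0.14, and 3 other genes were called, Notch2 and Notch3 as higher and Dll3 as lower.

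In brain progenitors Hes1 was lower in the mutant library, although it did not reach 1.5-fold. It had 540 UMIs or 56.5 CPM (51.8 to 61.5) in the control against 605 UMIs or 39.8 CPM (36.7 to 43.1) in the mutant, and its log2 ratio was -0.50 (-0.67 to -0.33). A Hes1 UMI was found in 15.8% (13.3 to 18.6) and 12.6% (10.8 to 14.6) of thinned cells. Hes5, in contrast, was slightly higher, at 0.09 (0.05 to 0.14). Jag2, under the minimum with 30 and 18 UMIs, had -1.41 (-2.34 to -0.52). Notch1, Notch2, Notch3, Dll1, Dll3, Jag1 and Hey1 had ratios between -0.10 and 0.09, and the interval of each contained 0. The median over the 9 genes was 0.03, beside -0.01 over all tested genes.

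The same was seen within the progenitor clusters (see the plot of neural clusters). Hes1 was lower in the mutant library in 5 of 6 clusters, with intervals below 0 in 4. It had 25.3 and 17.5 CPM in N0, led by Wfdc1 and Nr2e1, 45.2 and 25.99 CPM in N5, led by Msx3, Wnt3a and Olig3, 81.5 and 50.3 CPM in the roof plate and choroid plexus-like N10, and 241 and 165 CPM in N11, which was led by Corin and Dkk2 with Shh among its leading genes. In the isthmic progenitor-like N1, marked by Fgf8 and Fgf17, it had 49.5 and 49.9 CPM, a ratio of 0.01 (-0.32 to 0.34), and in N9, led by Nkx2-1, 93.3 and 83.2 CPM.

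**Figure D4:**
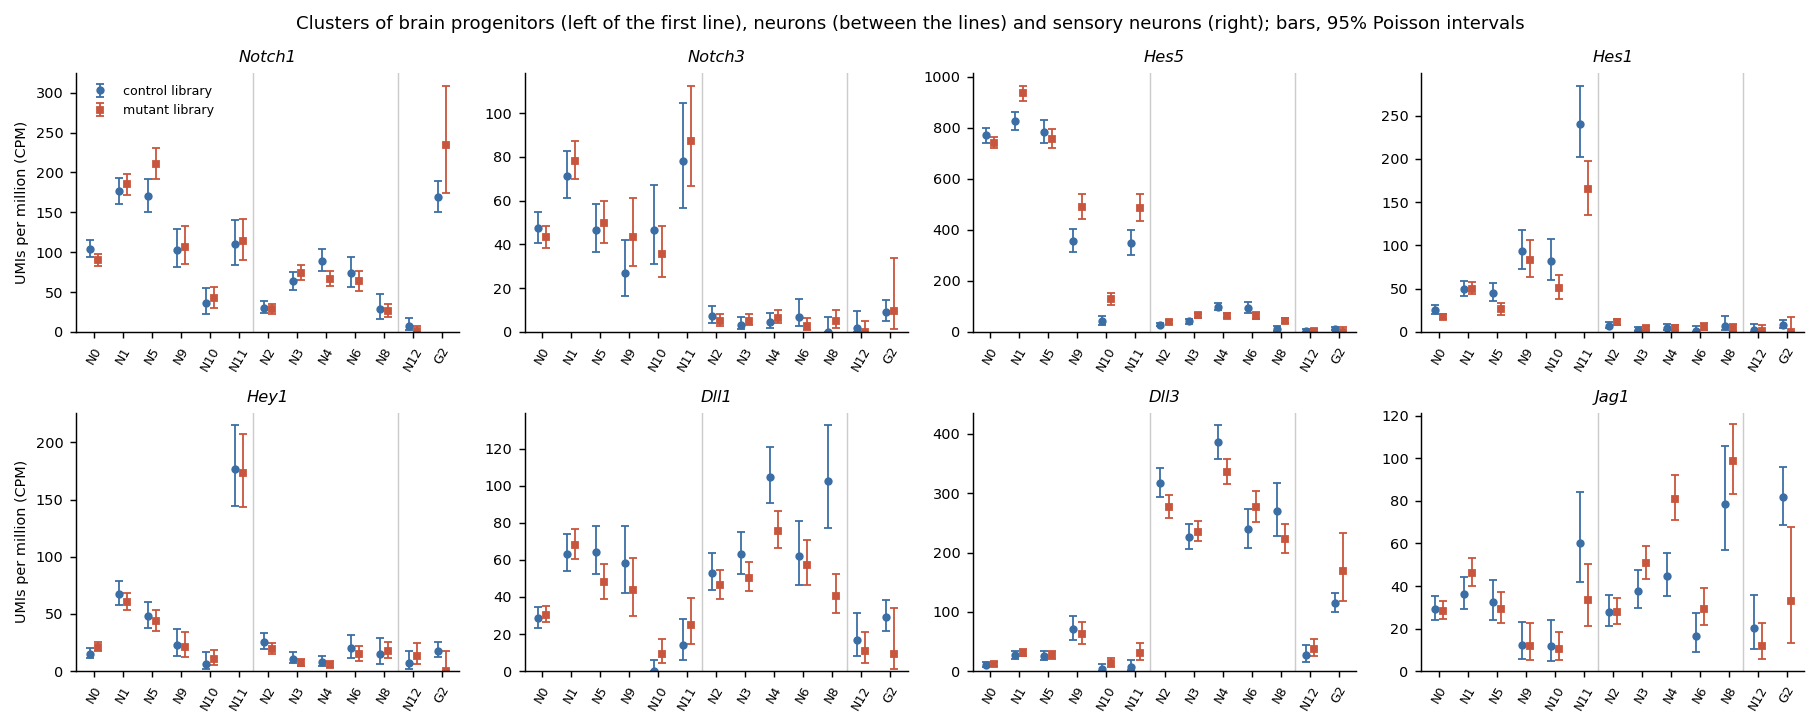
Level of 8 Notch genes in CPM (y axis from 0) in the brain progenitor clusters, the neuron clusters and the sensory neuron clusters, divided by grey lines, with circles for the control and squares for the mutant library and bars for 95% Poisson intervals. Hes5 is high in N0, N1 and N5 and low in N10, N11 stands out for Hes1 and Hey1, and Notch1 in G2 lies near the level of progenitors.

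Hes5 and Hes1 were arranged differently over these clusters. Hes5 was highest in N1, with 826 and 936 CPM, N5, with 784 and 756 CPM, and N0, with 770 and 741 CPM, and Hes1 was low in the same clusters. N11 had the highest Hes1 and also the highest Hey1, at 177 and 173 CPM, with Hes5 at 349 and 484 CPM. N10 had the lowest Hes5, at 41.6 CPM in the control and 127 CPM in the mutant library, from 25 and 137 UMIs, and its ratio of 1.62 (0.99 to 2.29) passed 1.5-fold, where 7.48% of tested genes were called in that cluster. Neuron markers in N10 summed to 118 and 223 CPM, with 6 of 7 higher, and in N11 to 191 and 659 CPM, with 7 of 7 higher, and their part in these ratios was not tested. Notch1 was higher in N5, with 170 and 210 CPM and 0.31 (0.09 to 0.53), and lower in N0, with 104 and 90.1 CPM and -0.21 (-0.40 to -0.02).

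In neurons Jag1 was higher and Dll1 lower in the mutant library. Jag1 had 271 UMIs or 37.0 CPM (32.8 to 41.7) and 686 UMIs or 55.3 CPM (51.3 to 59.6), a log2 ratio of 0.58 (0.37 to 0.79), which lies just inside the limit of 1.5-fold and passed it at 0.59 once called doublets were removed. The thinned share of cells with a Jag1 UMI, 10.9% (8.65 to 13.4) and 12.4% (10.5 to 14.4), did not differ beyond counting error. Dll1 had 537 UMIs or 73.4 CPM and 685 UMIs or 55.3 CPM, a ratio of -0.41 (-0.57 to -0.24). Dll3 had -0.12 (-0.20 to -0.04), Hey1 -0.38 (-0.74 to -0.01), Notch1 -0.13 (-0.30 to 0.05) and Jag2 -0.19 (-0.60 to 0.23), and Hes5 had 55.8 and 55.6 CPM. The median over the 7 genes was -0.13, beside 0.01 over all tested genes.

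Jag1 was higher in the excitatory neuron-like cluster N4, marked by Cck and Tfap2d, with 44.6 and 81.1 CPM, a ratio of 0.86 (0.50 to 1.24), and in N3, led by Hmx2 and Otp, with 37.7 and 50.7 CPM, 0.43 (0.02 to 0.84). N4 also held 1 gene called lower, Hes5, so that 2 of 5 genes were called there against 1.99% of all genes tested in it. The rhombic lip and dorsal neuron-like N2 had 27.7 and 27.6 CPM, and the inhibitory neuron-like N8 had the highest Jag1, with 78.5 and 98.5 CPM and 0.33 (-0.17 to 0.85). Dll1 was lower in all 5 neuron clusters, with intervals below 0 in N4, at -0.47 (-0.75 to -0.19), and in N8, at -1.33 (-1.88 to -0.77) from 56 and 60 UMIs.

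Hes5 in neurons had no common direction. It was higher in N3, with 40.8 and 64.5 CPM, 0.66 (0.28 to 1.05), and in N8, with 6 and 65 UMIs or 10.95 and 44.2 CPM, and lower in N4, with 98.9 and 63.7 CPM, -0.64 (-0.94 to -0.33), and in the Sim1-led N6, with 94.5 and 63.8 CPM. The progenitor markers moved the same way in N3, where they summed to 437 and 579 CPM, and in N4, with 997 and 904 CPM, and their part was not tested. They did not do so in N8, with 863 and 860 CPM, or in N6, with 579 and 612 CPM. In N3, 1 of 5 genes was called against a background of 1.99%.

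Sensory neuron-like cells came from 2 clusters that the libraries filled unequally. G2, the cluster led by Isl1 and Neurod1, held 94 of the 119 control but 11 of the 52 mutant cells, and N12, led by Isl2 and Prph, held 25 and 41. Over the class, Notch1 had 306 and 51 UMIs, a log2 ratio of -1.28 (-1.74 to -0.85), and Jag1 158 and 16 UMIs, -2.00 (-2.84 to -1.26). The 7 sensory neuron markers summed to 2603 and 1618 CPM and the 7 neuron markers to 9840 and 14981 CPM. The scaling factors of edgeR (TMM) shifted all ratios of this class by -0.16. With the cluster shares held equal Notch1 turned to 0.42 and Jag1 had -1.18. Within G2, Notch1 had 169 and 234 CPM, 0.47 (0.01 to 0.91), and Dll3 115 and 169 CPM, 0.56 (0.01 to 1.08), whereas Jag1 had 146 and 7 UMIs, -1.31 (-2.65 to -0.23), in a cluster where 15.5% of tested genes were called. In N12, Jag1 had 12 and 9 UMIs and Notch1 4 and 1. Removing called doublets moved Notch1 over the class to -1.79. The glia markers in G2 summed to 73.8 and 417 CPM, with 5 of 6 higher, and their part was not tested. The lower Notch1 of the class was not seen with the 11 mutant cells of G2, while the lower Jag1 was. Called doublets, 4.76% of the cells of G2 over both libraries, lay mostly among these 11 cells.

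The proneural genes behaved likewise. Of the 7 on the list, 4 passed the minimum in sensory neurons. Neurog1, Neurod1, Neurod4 and Insm1 were all called lower, with a median of -1.70. In that class 24.9% of all tested genes were called, 13.4% as lower. Within G2 the ratios of these 4 proneural genes lay between -0.35 and 0.02. In brain progenitors and neurons no proneural gene was called, of 5 and 7 that passed, against 1.38% and 1.65% of all tested genes. Neurog1 had -0.50 (-0.75 to -0.26) and Neurog2 -0.49 (-0.69 to -0.29) in progenitors, and Atoh1 had -0.49 (-0.61 to -0.37) in neurons.

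Single cells with a Dll1 UMI were then compared with the other cells of their class, all thinned to 4000 UMIs. In neurons, cells with Dll1 more often held a UMI of Hes5, in 30.0% (22.0 to 39.0) against 3.62% (2.25 to 5.48) of control cells and in 30.8% (23.6 to 38.6) against 5.39% (4.06 to 6.99) of mutant cells. They also held more of Notch1, with 34.2% against 14.1% and 42.9% against 9.76%, and of the progenitor gene Sox2, with 34.2% against 15.0% and 35.3% against 14.2%. The neuronal gene Stmn2 showed the reverse, with 40.0% against 85.7% and 44.9% against 87.1%. Cells with Dll1 in the neuron class thus carried more progenitor transcripts, in both libraries. These values describe cells of 1 library each and have no test.

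Among brain progenitors, cells with Dll1 numbered 95 of 766 in the control and 149 of 1242 in the mutant library. They held Hes6, a Hes protein that favours differentiation, in 69.5% against 35.0% and 72.5% against 37.2%. Hes5 was found in 81.1% (71.7 to 88.4) of cells with and 68.1% (64.4 to 71.6) of cells without Dll1 in the control library, and in 73.8% (66.0 to 80.7) and 73.1% (70.4 to 75.7) in the mutant library. Ligand and target were therefore often present in the same cell. Whether the libraries differ in this was not tested.

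**Figure D5:**
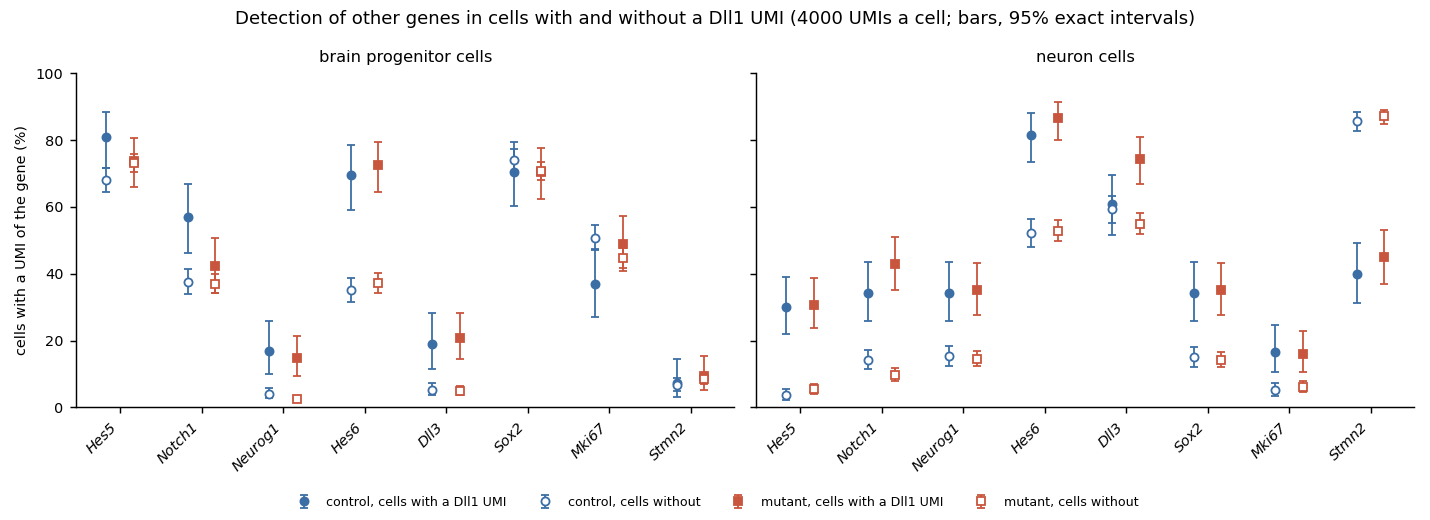
Share of cells with a UMI of each gene on the x axis (y axis, 0 to 100%) among cells with (filled) and without (open) a Dll1 UMI, for brain progenitors (left) and neurons (right), with circles for the control and squares for the mutant library and bars for 95% exact intervals. Neurog1 and Hes6 are more frequent in cells with Dll1 in both classes, and Stmn2 is less frequent in the neurons with Dll1.

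Over 46 profiles, each cluster in each library, the 3 genes most like each of the 10 were taken by Pearson correlation of log2(CPM + 1). The profiles share libraries and cell classes, so these are descriptions. Notch1 was closest to Fabp7 (r = 0.89), Ednrb (0.85) and Nrarp (0.84), Hes5 to C130071C03Rik (0.95), the fringe enzyme Lfng (0.93) and Sox3 (0.92), and Notch2 to Yap1 (0.95), Rest (0.94) and Pip4p2 (0.93). Notch3 was closest to Siva1, Chek1 and Id3 (0.95 to 0.94), Dll1 to Phf21b, Mir124-2hg and Ckb (0.94 to 0.93), and Dll3 to Slc1a2, Miat and Apc2 (0.96 to 0.95). Hes1 had Prelid2, Fstl1 and Ctdsp1 (0.89 to 0.88) and Jag2 had Rala, Prkcz and Snx30 (0.85 to 0.83). Jag1 and Hey1 had no close partner, with a highest r of 0.76 for Gpm6b and 0.75 for Tmem47. Among the 10 genes themselves the highest values were 0.88 for Notch2 with Notch3 and for Dll1 with Dll3, then 0.85 for Hes1 with Notch2 and with Notch3, and the lowest was -0.81 for Notch2 with Dll3.

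The rest of the pathway list held 45 genes, from ligand-like proteins and fringe enzymes to proteases, ubiquitin ligases and the nuclear complex. In brain progenitors 34 passed the minimum and 2 were called, against 1.38% of all tested genes, Dner, a neuronal Notch ligand, as higher with 3.98 and 7.77 CPM, 0.97 (0.43 to 1.53), and Furin, the protease that processes the receptor, as lower with 13.9 and 8.75 CPM, -0.67 (-1.03 to -0.31). In neurons 0 of 31 were called, against 1.65%. In sensory neurons 4 of 13 were called lower, where 24.9% of all tested genes were called and 13.4% were lower, namely Mfng, a fringe enzyme, with -2.09 (-2.85 to -1.41), Hes6 with -1.28 (-1.47 to -1.10), Ncstn, a part of gamma-secretase, with -0.71 (-1.41 to -0.07), and Spen, a corepressor, with -0.59 (-1.10 to -0.10). The libraries filled this class from different clusters, and within G2 Hes6 had 874 and 877 CPM, Spen 0.28 (-0.49 to 0.98), Ncstn -0.79 (-2.27 to 0.39) and Mfng -0.97 (-1.95 to -0.13). The medians over the genes that passed were -0.01 in progenitors, 0.04 in neurons and -0.13 in sensory neurons.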

How the data were processed

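The authors sorted GFP-positive cells, made 10x Chromium 3′ libraries and deposited filtered matrices of raw UMI counts per gene and barcode (Cell Ranger 6.0.0 in the file headers; mm10 per the labels). The submitters' processing notes also name bcl2fastq and Seurat 4.3.0. The strand setting was not given in the sources used here. Positions are from GENCODE M21 (GRCm38).

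Cells with over 10% mitochondrial UMIs, under 200 or over 7500 genes were removed. Libraries were integrated on anchors in Seurat 5.3.0 (R 4.3.3; 2000 genes, 30 dimensions) and clustered at a resolution of 0.05, then within classes (20 dimensions) at 0.4 for mesenchyme and 0.3 for neural cells and glia, chosen by markers. The Notch genes, the pathway list, Tfap2a, Tfap2b and sex-linked transcripts took no part. A cluster took a name when at least 3 markers, and the majority, of a list were detected in 10% of its cells and higher there, with a mean log2 ratio of 0.5 or more and no more markers of another list among its 10 leading genes. This rule was set after the clusters had been seen. Clusters with 40% or more doublets called by Scrublet (scanpy 1.11.5) were left out, while other called doublets were kept.

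UMIs were summed per class or cluster and library and scaled to CPM. Exact Poisson intervals were used for levels, exact conditional binomial intervals for ratios and Clopper-Pearson intervals for shares, after thinning cells to 4000 UMIs (shallower cells left out, 8 to 33 per library of mesenchyme, progenitors and neurons and at most 2 elsewhere). With 1 library per group no p-value was computed. The class sums, from 964174 to 57208748 UMIs, set the precision. PCR copies are collapsed by UMIs, but the intervals do not cover the spread between embryos. The ratios and calls were tried on simulated Poisson counts, which follow the model of the intervals. The simulated counts hold no spread between embryos and no planted changes near 1.5-fold, so they cannot show how calls behave there. All 10 genes are described. Pathway genes are named where they were called in a class, at most 12 per class, and the 3 most similar genes per member. The members and lists were chosen with earlier results of these data known. Alternatives were edgeR 4.0.16 TMM scaling, doublet removal, a minimum of 2000 UMIs a cell, thinning, equal weight per cell, fixed cluster shares, another class resolution (0.1), no integration and a minimum of 30 UMIs a gene.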

Additional observations from a re-analysis of the deposited data

Results flagged for a closer look

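4 genes lay higher in the mutant library in some classes and lower in others, with counting intervals that left out 0 on both sides. The difference between the classes was not tested, since each group was 1 library. Notch1 had a log2 ratio of 0.67 in the mesenchyme and -1.28 in sensory neurons. Jag1 had 0.32 in the mesenchyme, 0.51 in the glia and 0.58 in neurons, and -2.00 in sensory neurons. Hes1 had 0.11 in the mesenchyme, -0.33 in the glia and -0.50 in brain progenitors. Hey1 had 0.39 in the mesenchyme, -0.69 in the glia and -0.38 in neurons. In the glia, Hes1 and Jag1 did not keep their sign under every alternative. Their alternatives ran from -0.43 to 0.17 and from -0.14 to 0.60. The values of the sensory neurons rest on 52 mutant cells, 41 of which lay in N12, whereas 94 of the 119 control cells lay in G2.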

How the results depend on the processing

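Of 33 ratios of genes with enough UMIs in a class, 20 kept their sign under every alternative that gave a value, as did 3 of the 4 past 1.5-fold. The exception was Notch1 in sensory neurons, which reversed to 0.42 with cluster shares held fixed. That value leans on the 11 mutant cells of G2, some of which were called doublets. Removing called doublets over the class gave -1.79 instead. The number of genes called in the mesenchyme, 1, became 2 with a minimum of 30 UMIs (adding Dll3) and 2 in thinned cells (adding Hey1). It became 3 (adding Dll3 and Hes5) at a class resolution of 0.1, without integration or with the mixed clusters included. In the glia, 1 became 0 in thinned cells and with mixed clusters, and 3 at a resolution of 0.1, without integration and with the sensory neurons left in. The minimum of 30 UMIs gave 1 in place of 0 in brain progenitors (Jag2) and in neurons (Notch2), and doublet removal gave 1 in neurons (Jag1). In sensory neurons 2 became 0 in thinned cells and 3 with TMM scaling or doublet removal (adding Dll3) and with 30 UMIs (adding Dll1). The percentage of all tested genes called at 30 UMIs was 5.87 in the mesenchyme, 10.3 in the glia, 4.59 in brain progenitors and 4.55 in neurons. In the glia it was 9.62 at a resolution of 0.1, 9.65 without integration and 10.5 with the sensory neurons left in. It was 5.30 in thinned glia and 4.93 with mixed clusters. In the mesenchyme it was 2.31 in thinned cells, 3.21 at a resolution of 0.1, 3.14 without integration and 3.21 with mixed clusters. In sensory neurons it was 32.9 in thinned cells, 27.7 with TMM scaling, 30.1 with doublets removed and 31.9 at 30 UMIs. In neurons it was 1.71 with doublets removed. The cause was not tested, other than that lower minimums admit more genes and thinning leaves fewer UMIs. The alternatives with mixed clusters, with sensory neurons in the glia and without the roof plate cluster were chosen after seeing the data. Clustering without integration gave no value for brain progenitors, neurons and sensory neurons. No paired analysis was possible because each group was 1 library. Depth limits mainly the sensory neurons, with 964174 UMIs in the mutant library, and the single glial clusters.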
